A study of Mus musculus with 8 samples.

Results

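Transcript levels of 10 heat shock chaperone genes (Hspa8, Hsp90ab1, Hspd1, Hspe1, Hspa1a, Hspa1b, Dnajb1, Hsph1, Hsp90aa1 and Dnaja1) were followed in bone marrow cells of Trerf1 knockout and wild-type mice. The genes were taken by name, all 10 were found among the 53647 gene identifiers of the count files, and the rule that lists them uses no measured value. Hspa8, Hsp90ab1, Hspd1 and Hspe1 stand for chaperones made at all times, and the other 6 for those that heat and other protein-damaging stress induce. The question put to them was whether the balance of the 2 classes, a possible trace of how cells were handled before lysis, differed between the groups.

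The series holds 8 RNA-seq libraries of mouse bone marrow cells labelled Lin- CD127+, that is, without surface markers of mature lineages and with the interleukin 7 receptor alpha chain. Of these, 4 are titled KO1 to KO4 with the genotype spelled Tref1 -/- and 4 are titled WT1 to WT4 with the genotype Trerf1 +/+. No treatment, age or strain is stated in the sources used here, nor which exons the allele lacks. The labels do not tie libraries to animals, and p-values here set the difference between the groups against the variation among libraries. Xist, which female cells transcribe from their silenced X chromosome, was at 447, 0.0617, 498 and 768 CPM in KO1 to KO4, against 531, 0.0607, 0.613 and 563 CPM in WT1 to WT4. Each group thus held libraries of both sexes, and so of more than 1 animal, but 3 of 4 KO libraries and 2 of 4 WT libraries were female, so sex was not balanced between the groups.

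Trerf1, a zinc finger transcription factor gene (chromosome 17, 47451801 to 47672883), gave 13.4, 12.8, 12.1 and 22.1 counts-per-million (CPM) in KO1 to KO4, against 29.0, 32.1, 27.1 and 22.3 CPM in WT1 to WT4. The library labelled KO4 thus stood at the level of WT4, and each comparison below holds that doubt. The log2 fold change of Trerf1 was -0.87 with an adjusted p of 0.999 by edgeR and an exact permutation p of 0.0286. It was -1.20 with an adjusted p of 0.0473 by edgeR when the library labelled KO4 and WT4 were left out. Those were the highest KO library and the lowest WT library for Trerf1. Leaving them out widens its difference in itself, so that pass cannot count as support. Gene counts summed to 32821991 to 66515540 per KO library and to 31109744 to 73414626 per WT library. Il7r, which encodes the sorted receptor, was at 304 to 415 CPM in KO libraries and 269 to 374 CPM in WT libraries, so this defining marker of the sort was present in each library. CPM were scaled by edgeR's trimmed mean of M values (TMM).

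Heat shock proteins are chaperones that hold, fold or disaggregate other proteins. Hsp70 proteins bind exposed hydrophobic stretches in a cycle driven by ATP, which J-domain partners (DNAJ proteins) start and nucleotide exchange factors reset, while Hsp90 proteins finish the folding of kinases and steroid receptors. In mitochondria the Hsp60 barrel and its Hsp10 lid enclose single chains. The inducible genes are switched on within minutes of heat by heat shock factor HSF1, which as a trimer binds inverted repeats of the unit nGAAn, called heat shock elements. Enzymatic digestion, warming and sorting of cells are known to raise these transcripts together with immediate early genes, which makes them useful as a sign of handling.

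The promoters are shown because the heat shock element is what sets the inducible genes apart in the textbook account. Windows from 250 bases before to 50 bases after the start were taken from RefSeq (GRCm38.p6) for the 7 members listed there, in 12 windows. A pair of adjoining units was searched on both strands as GAANNTTC or TTCNNGAA, each its own reverse complement, and matches are in capitals, merged where they overlap. Of 32851 windows of this length over all genes, 15.1% held such a pair. A run of 3 adjoining units of alternating direction, which contains 2 overlapping pairs, stood in 0.603%. A pair stood in 7 of the 12 member windows, and 6 of the 7 members had it in at least 1 window. A match is a run of letters and not a measured binding site. The window of Hspa1a (chr17:34972107-34972406, minus strand) and that of Hspa1b (chr17:34959189-34959488, minus strand) are printed next.
Hspa1a: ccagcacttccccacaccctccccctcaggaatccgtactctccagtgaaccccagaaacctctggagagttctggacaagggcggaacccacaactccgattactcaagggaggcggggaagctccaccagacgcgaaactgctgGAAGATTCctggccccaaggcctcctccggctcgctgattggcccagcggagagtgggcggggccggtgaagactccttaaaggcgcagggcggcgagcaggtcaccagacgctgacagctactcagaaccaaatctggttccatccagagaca
Hspa1b: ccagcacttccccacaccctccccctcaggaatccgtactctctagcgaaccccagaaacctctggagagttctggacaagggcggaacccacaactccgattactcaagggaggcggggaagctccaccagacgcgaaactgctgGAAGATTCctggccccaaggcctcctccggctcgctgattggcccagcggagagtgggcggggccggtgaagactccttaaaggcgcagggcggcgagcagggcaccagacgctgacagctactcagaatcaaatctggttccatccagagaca

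The windows of Hspa1a and Hspa1b, which encode almost the same stress-induced Hsp70, were identical at 296 of 300 bases (98.7%). They differed at C44T, T47C, T249G and C276T, with the Hspa1a base given before the position, the Hspa1b base after it, and positions counted from 1 at the 5′ end of the window. Both had the pair GAAGATTC from 104 to 97 bases before the start.

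Hspd1 (Hsp60) and Hspe1 (Hsp10) are transcribed in opposite directions from shared DNA. A window of Hspd1 (chr1:55087883-55088182, minus strand) and that of Hspe1 (chr1:55087898-55088197, plus strand) overlapped by 285 bases, so the same elements appear in both on opposite strands.
Hspd1: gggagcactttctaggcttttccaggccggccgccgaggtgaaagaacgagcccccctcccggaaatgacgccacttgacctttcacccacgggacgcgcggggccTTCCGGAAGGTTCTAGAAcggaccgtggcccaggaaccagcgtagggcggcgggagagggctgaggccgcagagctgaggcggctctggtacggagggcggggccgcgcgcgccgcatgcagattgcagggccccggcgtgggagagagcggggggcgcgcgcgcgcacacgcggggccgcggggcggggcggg
Hspe1: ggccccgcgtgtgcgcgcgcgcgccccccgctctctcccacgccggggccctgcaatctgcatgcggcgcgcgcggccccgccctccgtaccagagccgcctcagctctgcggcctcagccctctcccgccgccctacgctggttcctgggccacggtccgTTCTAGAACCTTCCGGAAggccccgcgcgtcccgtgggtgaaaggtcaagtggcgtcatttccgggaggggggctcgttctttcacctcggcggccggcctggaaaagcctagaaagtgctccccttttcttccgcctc

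In that Hspd1 window 3 overlapping pairs made a run of 18 bases, and it held 2 matches of 3 adjoining units. A further Hspd1 window (chr1:55088194-55088493) held none. The letters usually tied to heat induction were thus present before 2 genes counted here as constitutive, in 1 of the 2 windows of Hspd1.

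Hsph1, an Hsp110 that resets Hsp70, had 3 pairs, 2 of them overlapping as 1 match of 3 units, in the window at chr5:149636287-149636586 (minus strand). Dnaja1, a DNAJ partner of Hsc70, had 1 pair in the window at chr4:40722218-40722517 (plus strand) and none in its other windows.
Hsph1: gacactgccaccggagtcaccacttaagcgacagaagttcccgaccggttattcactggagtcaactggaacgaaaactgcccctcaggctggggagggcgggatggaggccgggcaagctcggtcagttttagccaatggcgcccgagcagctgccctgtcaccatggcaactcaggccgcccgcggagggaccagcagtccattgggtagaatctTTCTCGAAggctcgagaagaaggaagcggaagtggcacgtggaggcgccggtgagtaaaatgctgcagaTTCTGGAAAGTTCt
Dnaja1: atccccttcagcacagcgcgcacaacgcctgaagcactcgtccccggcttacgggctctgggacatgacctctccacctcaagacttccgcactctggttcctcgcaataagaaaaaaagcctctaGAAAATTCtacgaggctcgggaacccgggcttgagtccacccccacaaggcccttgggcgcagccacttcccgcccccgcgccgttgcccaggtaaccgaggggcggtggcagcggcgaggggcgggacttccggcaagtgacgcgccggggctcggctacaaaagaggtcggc

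Neither of the 2 windows of Dnajb1 held these letters, which says nothing of HSF1 at that gene.

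None of the 9 members that could be tested passed the test between knockout and wild type. In the quasi-likelihood test of edgeR, adjusted by Benjamini-Hochberg over 16352 genes, 0 members passed an adjusted p of 0.05, where 0 of all genes did (0%), and DESeq2 called 0 as well. At an unadjusted p under 0.05 stood 0 of 9 members by edgeR, against 322 of all genes (1.97%). The adjusted p was 0.999 for each of the 9. Hspa1b was under the filter on low counts. In no member did the 4 KO libraries lie wholly outside the 4 WT libraries, an arrangement found in 210 genes tested (1.28%). The estimate was higher in knockout for 3 of the 9 members, with a median log2 fold change of -0.03, beside 8461 of 16352 genes and a median of 0.01 over all genes tested. With 4 libraries against 4, an exact permutation test (two-sided, 70 assignments) cannot give a p under 0.0286, and for the 10 members its p ran between 0.371 and 1. With the library labelled KO4 and WT4 both left out, 12 genes passed, Trerf1 among them and no member, and Hspa1a had a log2 fold change of -1.93. For Trerf1 that choice of libraries itself widens the difference, as said above.

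**Figure D1:**
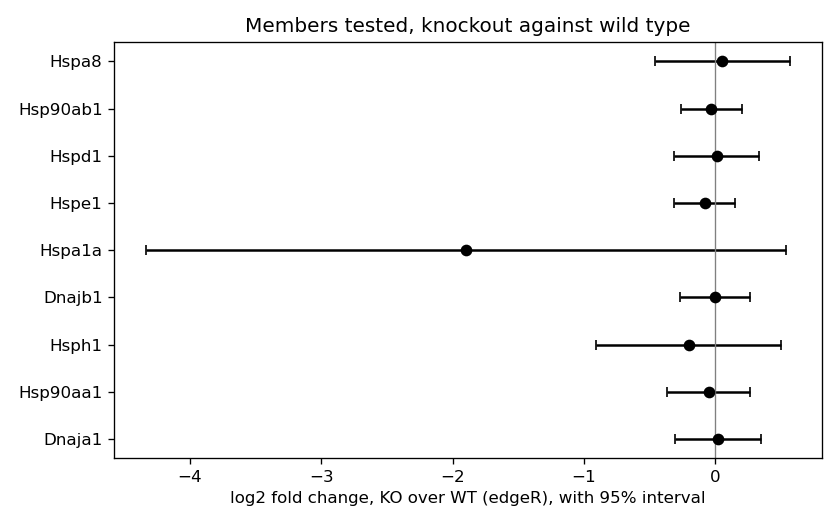
Log2 fold change of KO over WT on the x axis, with its 95% interval, for the 9 members tested. Every interval crosses 0, and that of Hspa1a, -4.33 to 0.54, is the widest of the 9.

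Hspa8 encodes Hsc70, the constitutive Hsp70 that folds new chains, strips clathrin coats and feeds chaperone-mediated autophagy (chromosome 9, 40712280 to 40721383). It gave 1901, 2161, 2985 and 3026 CPM in KO1 to KO4, against 1774, 1803, 2605 and 3519 CPM in WT1 to WT4. The groups overlapped, and in each of them the libraries numbered 3 and 4 were the high ones. The means were 2518 ± 573 CPM in KO and 2425 ± 825 CPM in WT (SD, n = 4 each), and the log2 fold change was 0.05 with an interval of -0.46 to 0.57.

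Hsp90ab1, the constitutive cytosolic Hsp90, was one of the steadier members. It gave 1305, 1488, 1446 and 1398 CPM in KO1 to KO4, against 1194, 1522, 1575 and 1455 CPM in WT1 to WT4. The KO libraries lay inside the WT range, and the highest library exceeded the lowest 1.32-fold, close to the 1.31-fold of Hspe1, the smallest range of the 10. The means were 1409 ± 78.3 CPM in KO and 1437 ± 169 CPM in WT (SD, n = 4 each), with a log2 fold change of -0.03 (interval -0.26 to 0.21). The gene lies on the chromosome of Trerf1 (45878701 to 45884197), 1.57 Mb from it.

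The mitochondrial pair was high and low in libraries of the same numbers. Hspd1 (chromosome 1, 55116994 to 55127402) gave 304, 308, 416 and 453 CPM in KO1 to KO4, against 333, 326, 410 and 400 CPM in WT1 to WT4. Hspe1 (55127291 to 55130466) gave 122, 126, 153 and 149 CPM in KO1 to KO4, against 130, 138, 153 and 160 CPM in WT1 to WT4. In both genes the groups overlapped and the libraries numbered 1 and 2 were low in KO and WT. Mean levels of Hspd1 were 370 ± 75.7 CPM in KO and 368 ± 43.7 CPM in WT, and those of Hspe1 138 ± 15.8 CPM in KO and 145 ± 13.6 CPM in WT (SD, n = 4 each). Their log2 fold changes were 0.01 (interval -0.31 to 0.34) and -0.08 (interval -0.31 to 0.15).

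**Figure D2:**
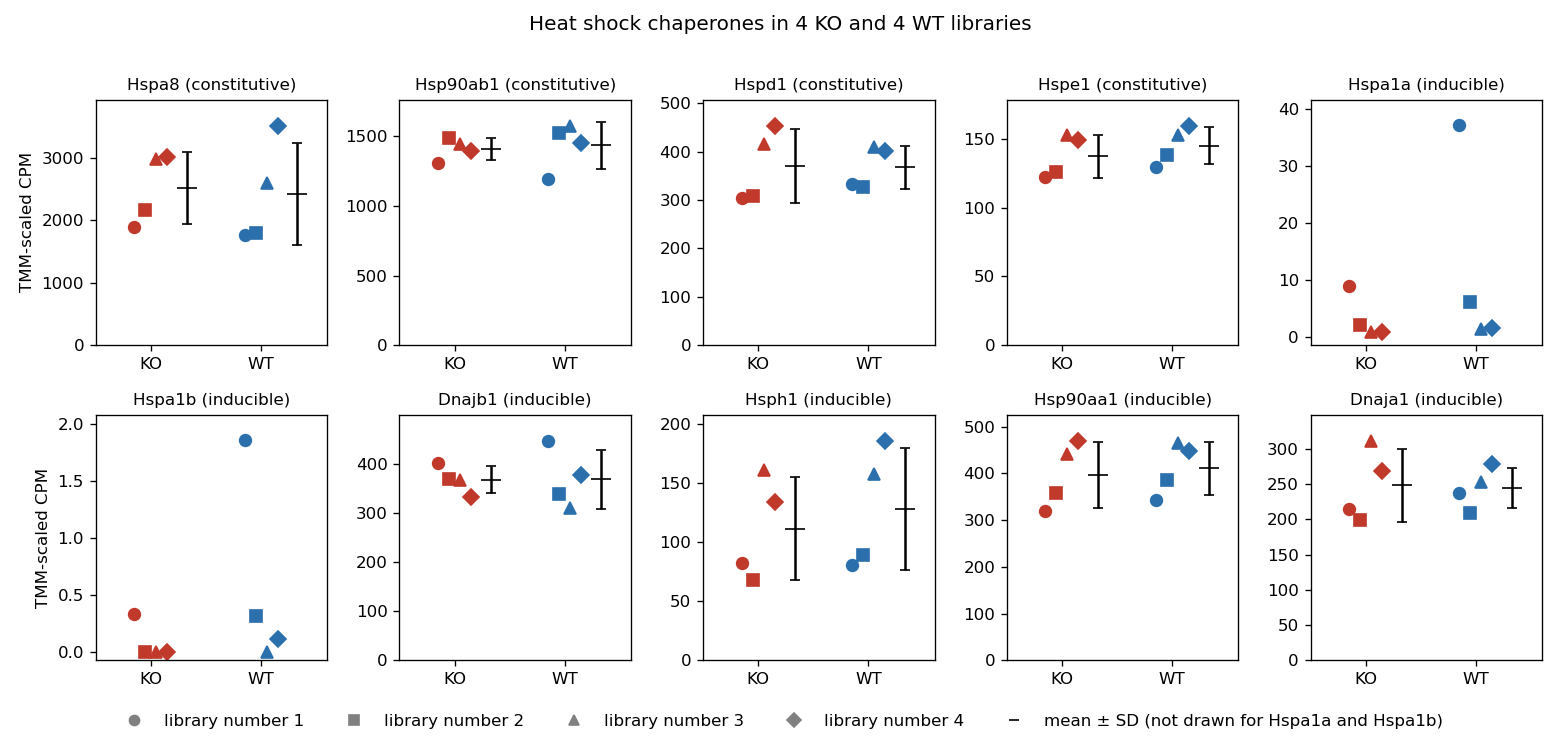
TMM-scaled CPM of the 10 members, with KO left of WT in each panel, 1 point per library, shaped by library number, and a bar for mean ± SD except for Hspa1a and Hspa1b. KO and WT points overlap in each panel, and Hspa1a runs from 0.738 CPM in KO3 to 37.1 CPM in WT1.

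Of the inducible class, 4 genes were well expressed in each library. Dnajb1, the DNAJ partner known as Hsp40 and a classical HSF1 target (chromosome 8, 84334822 to 84339282), gave 401, 370, 367 and 332 CPM in KO1 to KO4, against 446, 339, 309 and 378 CPM in WT1 to WT4. WT libraries held both the highest and the lowest value. The means were 367 ± 28.1 CPM in KO and 368 ± 59.2 CPM in WT (SD, n = 4 each), and the interval of the log2 fold change was -0.27 to 0.26.

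Hsph1 (chromosome 5, 149537752 to 149559841) varied most of the well-measured members. It gave 82.1, 68.3, 161 and 134 CPM in KO1 to KO4, against 80.4, 89.1, 158 and 186 CPM in WT1 to WT4. Libraries numbered 3 and 4 were the high ones in KO and WT alike, and the highest library was 2.72-fold above the lowest. The means were 111 ± 43.6 CPM in KO and 128 ± 51.6 CPM in WT (SD, n = 4 each). The log2 fold change of -0.20 had an interval of -0.91 to 0.50, while it was 0.03 without WT replicate 4 and -0.35 with Xist as a covariate.

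Hsp90aa1, the stress-inducible cytosolic Hsp90 (chromosome 12, 110657039 to 110669162), gave 319, 357, 441 and 469 CPM in KO1 to KO4, against 343, 386, 466 and 447 CPM in WT1 to WT4. Dnaja1 (chromosome 4, 40722150 to 40737149) gave 215, 198, 311 and 268 CPM in KO1 to KO4, against 237, 209, 253 and 278 CPM in WT1 to WT4. The groups overlapped in both genes, and the low libraries were again those numbered 1 and 2. Hsp90aa1 averaged 396 ± 70.02 CPM in KO and 410 ± 56.4 CPM in WT, and Dnaja1 248 ± 51.4 CPM in KO and 244 ± 28.9 CPM in WT (SD, n = 4 each). The intervals of their log2 fold changes were -0.36 to 0.26 and -0.30 to 0.35.

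Hspa1a was the exception in spread. This gene (chromosome 17, 35188166 to 35191132, 12.3 Mb from Trerf1) gave 8.81, 2.07, 0.738 and 0.769 CPM in KO1 to KO4, against 37.1, 6.02, 1.38 and 1.54 CPM in WT1 to WT4, from 24 to 1281 counts per library. WT1 stood far above the rest, KO1 came next, and the KO value was below that of the WT library of the same number in each case, although the groups overlapped. The log2 fold change of -1.90 (interval -4.33 to 0.54) had an unadjusted p of 0.114 by edgeR and an adjusted p of 0.999. Without KO replicate 1 the log2 fold change was -3.29, and without WT replicate 1 it was 0.03. The negative estimate of this fit therefore depended on WT1, while leaving out KO1 made it larger in size.

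Hspa1b (35175412 to 35178214) gave 12, 0, 0 and 0 counts in KO1 to KO4, against 64, 21, 0 and 8 counts in WT1 to WT4. Scaled, these were 0.335 CPM in KO1, against 1.86, 0.319 and 0.114 CPM in WT1, WT2 and WT4. A count of 0 still allows up to 3 counts, which is 0.0926, 0.0922 and 0.0453 CPM in KO2, KO3 and KO4 and 0.0920 CPM in WT3, covering counting error only. As for Hspa1a, WT1 was the highest library. Fitted with no filter on low counts, its log2 fold change was -2.78 with an unadjusted p of 0.0394 and an adjusted p of 0.932 by edgeR, and DESeq2 gave an unadjusted p of 0.301.

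Transcripts of red cell precursors moved with Hspa1a. Of 12 erythroid markers 11 were found, and none of the 11 was at 0 in all libraries. Their summed level was 275, 157, 52.1 and 46.4 CPM in KO1 to KO4, against 720, 229, 54.1 and 58.8 CPM in WT1 to WT4. WT1, KO1, WT2 and KO2 were the highest 4 libraries, in that order, for the erythroid sum as for Hspa1a. The beta globin transcript Hbb-bs alone gave 80.5, 54.2, 20.6 and 11.4 CPM in KO1 to KO4, against 244, 76.7, 12.1 and 22.6 CPM in WT1 to WT4. Some genes of neutrophil granules were also highest in KO1 and next in WT1. Ngp gave 22.7, 0.0617, 0.246 and 0.392 CPM in KO1 to KO4, against 6.38, 0.106, 1.17 and 0.571 CPM in WT1 to WT4, and S100a8 gave 12.3 CPM in KO1 and 3.42 CPM in WT1 with at most 2.29 CPM in the other libraries. Camp, S100a9 and Ltf were highest in the same libraries. Mpo, which makes up most of the summed neutrophil level, did not have that order, nor did Elane, Prtn3, Mmp8 and Ly6g. Elane was highest in the library labelled KO4 (17.0 CPM, against 1.28 CPM in KO1). Prtn3 was highest in KO2 (27.6 CPM, against 24.8 CPM in KO1). The summed T cell markers were highest in KO1 among KO libraries (554 CPM) and in WT1 among WT libraries (454 CPM). Much of each sum was Cd4, at 281 CPM in KO1 and 193 CPM in WT1. Cd5 was also highest in KO1 (16.7 CPM) and WT1 (12.3 CPM) of their groups. Cd3g and Cd3d went the other way, lowest in WT1 among WT libraries at 3.83 and 3.60 CPM. The T cell genes thus did not share 1 order. The part of erythroid, neutrophil or T cell RNA in the Hspa1a values was not tested. In bulk libraries, fewer cells of a type and less RNA per cell cannot be told apart. None of the 11 erythroid genes passed the test (0%), and the median of their log2 fold changes was -1.04, with all 11 estimates lower in knockout.

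Immediate early genes, which tissue dissociation and sorting are known to raise, took another order. The summed level of 26 of them was 7029, 6705, 7309 and 11062 CPM in KO1 to KO4, against 8408, 8594, 7970 and 9479 CPM in WT1 to WT4. The library labelled KO4 and WT4 were the high ones, and both had under 2 CPM of Hspa1a. Fos, a subunit of the AP-1 transcription factor, gave 870, 1350, 1012 and 1815 CPM in KO1 to KO4, against 1349, 1735, 1151 and 1294 CPM in WT1 to WT4. Among the 25 tested, 0 passed, 7 had a higher estimate in knockout, and the median log2 fold change was -0.08. Egr1, an early growth response factor, was the only gene of that list with an unadjusted p under 0.05 by edgeR, 1 of 25 tested. Of all genes tested, 1.97% had such a p, and 1.28% had groups that did not overlap. Egr1 gave 90.6, 104, 91.2 and 111 CPM in KO1 to KO4, against 158, 166, 119 and 117 CPM in WT1 to WT4. Its groups did not overlap, and it had an unadjusted p of 0.00352 and an adjusted p of 0.999 by edgeR.

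**Figure D3:**
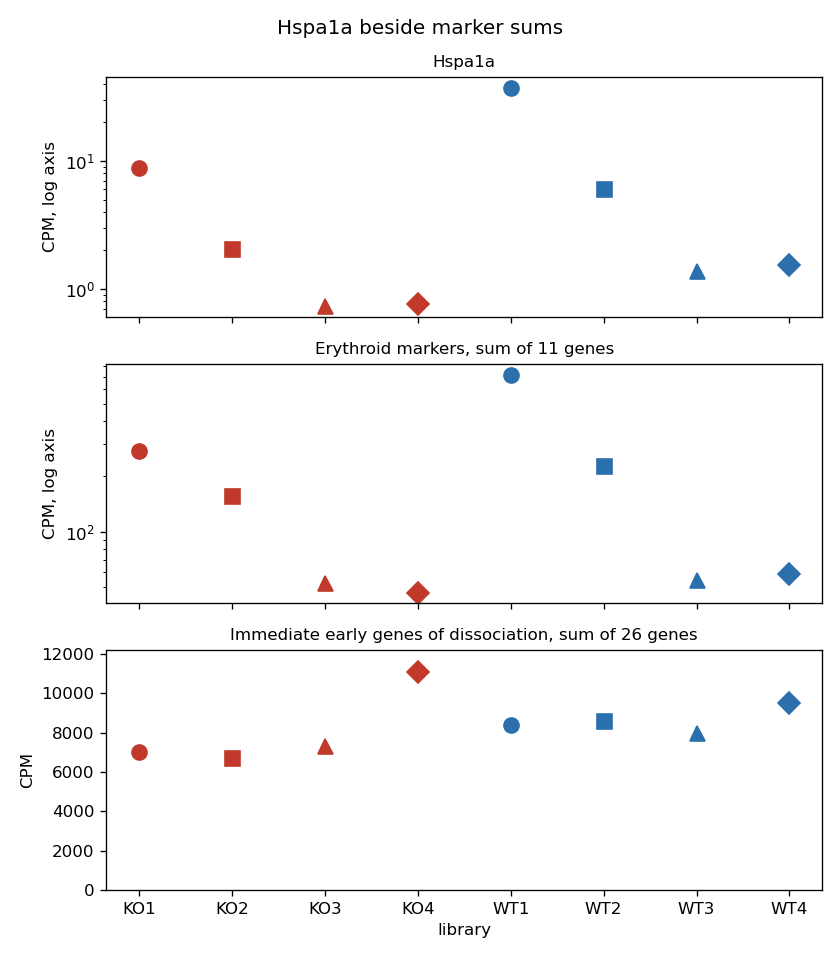
Hspa1a and the summed erythroid markers, both on log axes, and the summed immediate early genes, in CPM, for each library with KO left of WT. The first 2 panels are highest in KO1 among KO libraries and in WT1 among WT libraries, whereas the immediate early sum is highest in the library labelled KO4 at 11062 CPM.

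The balance of the classes was read as the mean log2 CPM of the 6 inducible members minus that of the 4 constitutive ones. It was -3.62, -4.57, -4.72 and -4.82 in KO1 to KO4, against -2.84, -3.81, -4.64 and -4.36 in WT1 to WT4. The groups overlapped, and KO1 and WT1 were each the highest of their group. Means were -4.43 ± 0.55 in KO and -3.91 ± 0.80 in WT (SD, n = 4 each), a difference of -0.52. Hspa1b had a count of 0 in KO2, KO3, KO4 and WT3, where its log2 CPM rested on the prior count. The difference was -0.72 with a prior count of 0.5 and -0.38 with RSEM expected counts, so its size depended on these choices. With Hspa1a and Hspa1b left out, the means were -1.39 ± 0.11 in KO and -1.34 ± 0.08 in WT, and the difference was -0.05. With all members kept, the difference was -0.79 without KO replicate 1 and -0.16 without WT replicate 1, so it followed the same libraries as Hspa1a. The difference is given as a description, with no test.

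In most members the high libraries were those with the same label numbers in both genotypes. For 6 of the 10 members (Hspa8, Hspd1, Hspe1, Hsph1, Hsp90aa1 and Dnaja1) all 4 libraries numbered 3 and 4 exceeded all 4 numbered 1 and 2, which 3.4% of genes tested did. The reverse held for Hspa1a, as for 4% of genes tested. Hsp90ab1, Dnajb1 and Hspa1b showed neither order. The labels do not say what a number stands for, and this order was noticed after the values were seen, so no test is attached. The counts of members were again 6 and 1 with RLE factors or library size alone. They were 5 and 1 with RSEM expected counts, and 4 and 1 with the authors' transcripts-per-million (TPM) values. For Hspa8, the lowest library numbered 3 or 4 had 2605 CPM, and the highest numbered 1 or 2 had 2161 CPM.

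**Figure D4:**
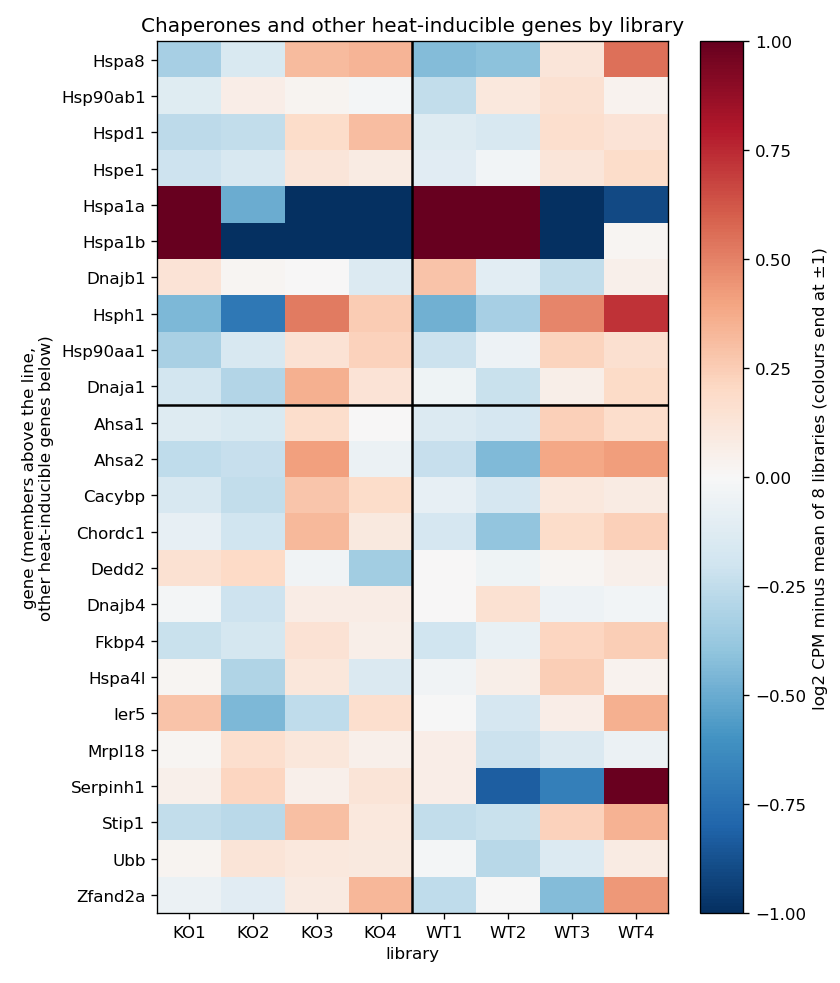
Log2 CPM minus the mean of the 8 libraries, in colour, for the members above the line and other heat-inducible genes below it, with KO libraries left of WT libraries. Most members are above their mean in the libraries numbered 3 and 4 and below it in those numbered 1 and 2, in both genotypes, whereas Hspa1a is above its mean in KO1, WT1 and WT2.

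Transcripts of the heat shock factors themselves did not pass the test. Hsf1 gave 117, 117, 134 and 148 CPM in KO1 to KO4, against 135, 119, 140 and 144 CPM in WT1 to WT4, with a log2 fold change of -0.06 ± 0.10 (SE). Hsf2 averaged 8.67 ± 1.74 CPM in KO and 9.66 ± 2.10 CPM in WT, and Hsbp1, which binds HSF1 and restrains it, 182 ± 9.96 CPM in KO and 166 ± 11.04 CPM in WT (SD, n = 4 each). Hsf4 and Hsf5 were under the filter on low counts. Of these 3 tested genes 0 passed, and 1 had a higher estimate in knockout.

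None of the other genes that heat induces passed the test between genotypes. Of 22 found, 19 were tested, 0 passed, 9 had a higher estimate in knockout, and the median log2 fold change was -0.0017. Stip1, which links Hsp70 to Hsp90, averaged 366 ± 71.2 CPM in KO and 381 ± 80.5 CPM in WT (SD, n = 4 each). Fkbp4, an Hsp90-bound prolyl isomerase, averaged 457 ± 56.6 CPM in KO and 489 ± 73.1 CPM in WT. Ahsa1, the activator of the Hsp90 ATPase, averaged 195 ± 20.6 CPM in KO and 203 ± 29.3 CPM in WT. These abundant partners differed by less than their SD. Chordc1, an Hsp90-binding protein, averaged 182 ± 29.5 CPM in KO and 175 ± 35.1 CPM in WT, and the polyubiquitin gene Ubb 1780 ± 53.2 CPM in KO and 1582 ± 166 CPM in WT.

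Genes of that group that resting cells are known to transcribe little were low. Bag3, the exchange factor that rises with Hspa1a in heated cells, gave 5.66, 3.64, 4.396 and 3.98 CPM in KO1 to KO4, against 7.19, 6.16, 5.09 and 4.68 CPM in WT1 to WT4. WT1 was its highest library too, but only 1.98-fold above KO2, the lowest, where the range of Hspa1a was 50.3-fold. Hspb1, the small chaperone Hsp27, was at no more than 0.0615 CPM in KO libraries and 0.0607 CPM in WT libraries. Cryab, another small chaperone, was the only gene of the group with an unadjusted p under 0.05 (0.0117, adjusted p 0.999 by edgeR), at 1.25 ± 0.41 CPM in KO and 0.588 ± 0.0745 CPM in WT (SD, n = 4 each). That is 1 of 19 tested, beside 1.97% of all genes tested.

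Levels can be set against each other per transcript length through the authors' TPM. Hspa8 had a median of 3091 TPM over the 8 libraries, rank 26 of all genes by that median, and ranged over 2477 to 3873 TPM in KO and 2607 to 4155 TPM in WT. It alone made up 48.2% to 59.9% of the TPM of the 10 members in a library. Next came Hsp90ab1 with a median of 882 TPM and Hsp90aa1 with 694 TPM, whose ranges overlapped. Dnaja1 (349 TPM), Hspe1 (300.3 TPM) and Hspd1 (266 TPM) followed with overlapping ranges, so their order is not settled. Dnajb1 at 155 TPM lay below all of these, and Hsph1 at 42.3 TPM below Dnajb1, in each case with no overlap of the ranges. Hspa1a had a median of 2.54 TPM but reached 66.2 TPM in WT1, within the Hsph1 range, and Hspa1b a median of 0.045 TPM. The 10 members together took 0.482% to 0.664% of all TPM in KO libraries and 0.517% to 0.711% in WT libraries.

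Several members share long stretches with other genes, which bears on what their counts hold. Of the 75-base windows in the longest GENCODE protein-coding transcript of each member, on either strand, 68.6% of those of Hspa8 recurred in another gene, mostly Gm15459 (64.3%). The share was 61.7% for Hspa1a and 55.8% for Hspa1b, which share 1524 windows with each other. It was 53.1% for Hsp90aa1, 33.7% for Hspd1 (32.5% with Hspd1-ps3), 29.1% for Hspe1, 26.2% for Dnaja1 and 0.736% for Hsp90ab1. Dnajb1 and Hsph1 shared none. The length of 75 bases was chosen here, since the sources used here give no read length.

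The deposited counts, which leave out reads that map to several places, were set against the RSEM expected counts, which share such reads out. The ratio was 4.36 for the median of 16288 genes, and 5% to 95% of genes lay between 1.68 and 6.77. It was 1.04 for Hspa1a, 1.58 for Hspa1b, 2.28 for Hspa8, 2.55 for Dnaja1, 2.57 for Hsp90aa1 and 3.43 for Hspd1. It was 4.06 for Hspe1, and for Hsp90ab1, Dnajb1 and Hsph1 it was 4.30, 4.30 and 4.34. The members with the least shared sequence thus had ratios near that of all genes. Whether shared sequence set these ratios was not tested. With expected counts, Hspa1a had a log2 fold change of -1.68 ± 1.09 (SE) and an unadjusted p of 0.152, so the comparison of its levels came out alike. Hspa1a and Hspa1b values remain uncertain as single genes.

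**Figure D5:**
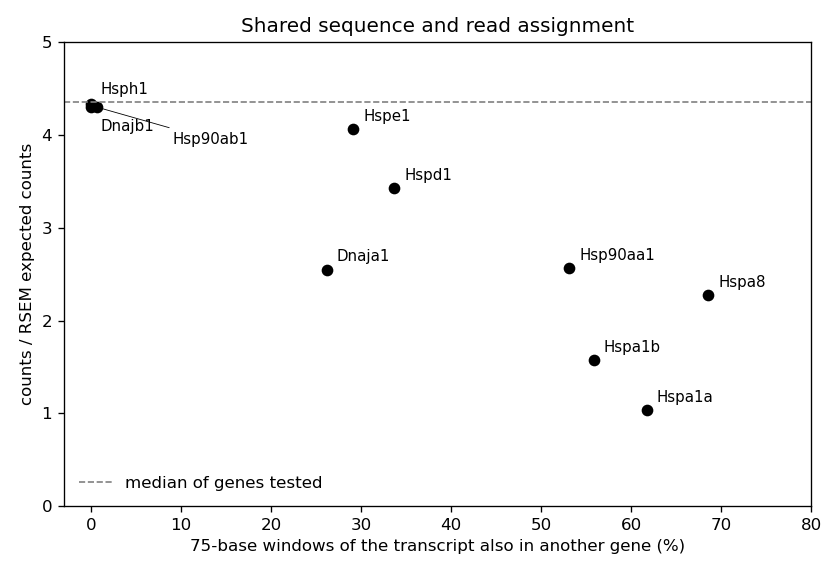
Deposited counts over RSEM expected counts on the y axis against the percentage of 75-base transcript windows found in another gene on the x axis, 1 point per member, with the median of genes tested as a dashed line at 4.36. Dnajb1, Hsph1 and Hsp90ab1 sit at the line and Hspa1a is the lowest at 1.04.

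The library kit does not mark strand, so reads from exons that overlap on opposite strands cannot be told apart by strand. What part such reads had in the counts and ratios above was not tested. Exons of Hspa1a shared 564 bases (19.0% of its exons) with Gm20481 on the opposite strand, and exons of Dnaja1 shared 608 bases with Smu1, also opposite. Hspd1 and Hspe1 shared 112 exon bases. Of 12 pseudogenes named after members, Hspd1-ps3 had the most counts, 64 to 194 per KO library and 82 to 140 per WT library, against 9988 to 30056 counts of Hspd1 itself in KO libraries.

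The wider chaperone network also gave no call between genotypes. Of 18 Hsp70 partners and exchange factors, 15 Hsp90 cochaperones, 12 mitochondrial chaperones, 15 endoplasmic reticulum chaperones and 14 subunits of the TRiC ring and prefoldin, 0 passed the test. Estimates were higher in knockout for 9, 8, 9, 7 and 9 of them, with median log2 fold changes of 0.01, 0.04, 0.05, -0.01 and 0.04. Hspa5, the Hsp70 of the endoplasmic reticulum known as BiP, gave 1876, 1512, 2265 and 2868 CPM in KO1 to KO4, against 1863, 1254, 1822 and 2884 CPM in WT1 to WT4. The groups overlapped and the library labelled KO4 and WT4 were the highest. Hyou1, an Hsp110 of the same compartment, averaged 47.3 ± 11.6 CPM in KO and 60.8 ± 20.3 CPM in WT (SD, n = 4 each). Unc45a, a cochaperone that helps Hsp90 fold myosin, was the only one of the 15 Hsp90 cochaperones whose groups did not overlap, at 55.9 to 59.2 CPM in KO and 59.8 to 65.5 CPM in WT, with an unadjusted p of 0.162 by edgeR. Of all genes tested, 1.28% had groups that did not overlap. Bag6, listed here among the Hsp70 partners and exchange factors, averaged 63.0 ± 8.98 CPM in KO and 80.8 ± 26.7 CPM in WT. Pfdn5, a prefoldin subunit, averaged 135 ± 11.3 CPM in KO and 118 ± 14.9 CPM in WT.

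Transcripts listed here as markers of neutrophils, monocytes and T cells were present at uneven levels. Whether mature cells or Lin- progenitors made them was not tested. Mpo alone gave 146 to 299 CPM in KO and 163 to 259 CPM in WT, most of the neutrophil sum below. Ly6g was at no more than 0.0905 CPM in KO and 0.0307 CPM in WT. The summed level of 10 neutrophil markers was 161 to 328 CPM in KO and 184 to 273 CPM in WT, that of 8 monocyte and macrophage markers 411 to 628 CPM in KO and 315 to 534 CPM in WT, and that of 9 T cell markers 418 to 554 CPM in KO and 379 to 454 CPM in WT. For 6 plasma cell markers the sum was 877 to 1033 CPM in KO and 700.2 to 1269 CPM in WT, and for 10 early lymphoid markers 6543 to 10152 CPM in KO and 6492 to 8113 CPM in WT. No gene of these lists passed the test, and no list had a member at 0 in all libraries. Estimates were higher in knockout for 7 of 8 neutrophil genes tested (median log2 fold change 1.08), 7 of 7 monocyte and macrophage genes (0.35), 7 of 9 T cell genes (0.34), 5 of 6 plasma cell genes (0.20) and 6 of 10 early lymphoid genes (0.07), beside 51.7% of all genes tested. An unadjusted p under 0.05 by edgeR was found for Cd5, Cd3g, Csf1r, F13a1, Prtn3 and Jchain, each higher in knockout, beside 1.97% of all genes tested. The part of these cells in the chaperone values was not tested.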

How the data were processed

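RNA was purified with a column kit and 200 ng went into a low-input library kit that does not mark strand, per the labels' protocols. The authors deposited whole-number read counts per gene, made with featureCounts 1.6.4 per the file headers, in which reads mapping to several places are left out by default. The authors also deposited RSEM expected counts, which need not be whole and were rounded here, and TPM per gene. STAR 2.6.0a, Picard 2.19 and RSEM 1.3.1 are named in the submitters' processing notes, which name build mm10, while the count file headers name GRCm39. Gene coordinates come from the count files and were taken as GRCm39, and promoters are RefSeq GRCm38.p6. Of 53647 identifiers, 52093 (97.1%) matched a symbol.

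The counts were analysed with edgeR 4.0.16 (R 4.3.3; filterByExpr, TMM factors, quasi-likelihood test of KO over WT, no covariate, Benjamini-Hochberg adjustment, threshold 0.05), after the steps were tested on simulated data. Intervals are 95% intervals from that fit, and log2 CPM used a prior count of 3. The fit was repeated with DESeq2 1.42.0, with RLE factors or library size alone, with no filter, with RSEM expected counts, with a replicate block, with Xist, which separates female from male libraries, as a covariate, without each library in turn, and in subsets of libraries. Members, lists, alternatives and the naming rule were chosen with earlier results of these data known. The rule names all members, Trerf1, pseudogenes named after members, up to 3 genes per list with the smallest p, and heat shock factors and other heat-inducible genes with a mean of at least 10 CPM. 1 gene under that rule is left out of the text. Genes named beyond it (Hbb-bs, Fos, Bag3, Hspb1, Xist, Ngp, S100a8, S100a9, Ltf, Mpo, Mmp8, Ly6g and Cd4) were chosen after their values were seen. Correlations of the 45 member pairs are not given, since most members shared the order by library number described above.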

Additional observations from a re-analysis of the deposited data

Results flagged for a closer look

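Among 24 groups of 4 libraries examined (the members, Trerf1 and the class balance), 4 held a library whose gap to its neighbour, as a share of the whole range, exceeded Dixon's 95% critical value. Chance flags about 1 in 20 groups. Hspa1a was at 8.81 CPM in KO1, a gap of 0.835 of the KO range, and at 37.1 CPM in WT1, a gap of 0.870 of the WT range. Hspa1b was at 0.335 CPM in KO1, where the other KO libraries had no counts. Trerf1 was at 22.1 CPM in the library labelled KO4, a gap of 0.876 of the KO range, above the 12.1 to 13.4 CPM of KO1 to KO3.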

How the results depend on the processing

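Of 153 member log2 fold changes over 17 alternatives, 113 kept their sign and 40 changed it. None passed, and the smallest adjusted p was 0.635. The count of genes past the threshold was 0 under each alternative except with WT4 and KO4 left out, where it was 12. DESeq2 put 565 genes at an unadjusted p under 0.05. The sign changed with library size alone for Hspd1 (-0.017) and Dnaja1 (-0.0054), with no filter for Hspd1 (-0.0016), and with expected counts for Hspa8 (-0.011), Hspd1 (-0.030), Dnajb1 (0.022) and Dnaja1 (-0.030). It changed with WT4 and KO4 left out for Hspd1 (-0.057) and Dnajb1 (0.056), and with Xist as covariate for Hspa8 (-0.010), Hsp90ab1 (0.010), Hspd1 (-0.035) and Dnaja1 (-0.048). In the 5 shallower libraries it changed for Hsp90ab1 (0.030), Hspd1 (-0.12), Dnajb1 (0.0068) and Dnaja1 (-0.021). The cause was not tested. Leaving out each library in turn gave -0.077 to 0.29 for Hspa8, -0.12 to 0.015 for Hsp90ab1, -0.10 to 0.090 for Hspd1, -0.14 (without WT1) to -0.029 (without WT4) for Hspe1, -3.29 to 0.033 for Hspa1a, -0.081 to 0.096 for Dnajb1, -0.43 to 0.035 for Hsph1, -0.14 to 0.034 for Hsp90aa1 and -0.11 to 0.11 for Dnaja1, and -0.79 to -0.16 for the class balance.

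KO and WT libraries share replicate numbers, and deviations of same-numbered libraries correlated at 0.36, 0.31, -0.03 and 0.12, with KO3 closest to WT4 and KO4 to WT3, so the numbers were not taken as pairs. With the replicate block, Hspa1a had a log2 fold change of -1.44 ± 0.24 (SE), an unadjusted p of 0.000198 and an adjusted p of 0.936, Hspd1 was at -0.0034, Dnajb1 at 0.0084, and 0 genes passed (634 at an unadjusted p under 0.05).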

Other observations

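The order by library number described for the members was also counted in the other chaperone lists, with no test, since it was noticed in these data. All 4 libraries numbered 3 and 4 lay above all 4 numbered 1 and 2 in 6 of 19 other heat-inducible genes (Chordc1, Ahsa1, Ahsa2, Stip1, Cacybp and Fkbp4, 31.6%), beside 3.4% of all genes tested. Stip1 gave 309, 306, 453 and 395 CPM in KO1 to KO4, against 310.2, 316, 431 and 468 CPM in WT1 to WT4. The same order held in 4 of 14 TRiC and prefoldin subunits (Cct3, Cct7, Cct8 and Pfdn2), 4 of 18 Hsp70 partners (Hspa14, Bag2, St13 and Dnajc2), 3 of 15 endoplasmic reticulum chaperones (Calr, Sdf2l1 and Creld2) and 5 of 25 immediate early genes (Junb, Nr4a2, Klf4, Nfkbia and Ppp1r15a). It held in 1 of 15 Hsp90 cochaperones, 1 of 12 mitochondrial chaperones and none of the 3 heat shock factors. The reverse order held in 10 of 11 erythroid markers, all but Gata1, beside 4% of all genes tested. These genes were named for that order after their values were seen.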
